A study of Mus musculus with 2 samples.

Results

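Wnt signalling genes were compared between 2 embryonic mouse brain arrays, 1 from a sample labelled KO (knockout) and 1 from a sample labelled WT (wild type). The set holds 41 genes of the pathway: ligands, Frizzled receptors and co-receptors, secreted modulators, intracellular components, transcription factors and readouts, together with the Wnt cofactor gene Cthrc1, and without Wnt1. Genes were taken by symbol from the probe annotation of the array, with the probe set of the highest mean signal standing for each gene. Of the 41 genes, 40 had a named probe set, out of 18194 genes measured in all, and Tcf7 was not analysed here.

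Brain tissue of C57BL/6 mice at stage E10.5 (midgestation) is what both labels describe, and 250 ng of total RNA was labelled for each. The labels give neither the gene that was knocked out nor the allele, the sex or the number of embryos in a sample. The sample titles speak of the embryo, while the tissue label and the series design speak of the brain. All 7 neural progenitor markers and all 6 neuron markers looked up here were measured above the level filter explained below. So were 10 of 13 head mesenchyme markers, so these markers do not tell a brain sample from one with other embryo tissue. With 1 array per group there is no replicate error, no test was possible, and every difference below is between these 2 arrays.

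Wnt proteins are secreted lipid-modified ligands that bind Frizzled receptors. Together with the co-receptors Lrp5 and Lrp6 and the adaptor Dishevelled (Dvl genes), the canonical branch stops a complex of Axin, Apc and Gsk3b from marking β-catenin (Ctnnb1) for destruction, and β-catenin then works with Tcf and Lef transcription factors at target genes. Other branches act through Ror2 and the planar cell polarity proteins. In the embryonic neural tube, Wnt ligands are known as signals of the dorsal midline and of the midbrain-hindbrain junction.

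Values are the authors' deposited linear probe set signals. Differences are KO minus WT on the log2(signal + 16) scale after both arrays were brought to the same median, and this scale understates the change of dim genes. Folds and fold thresholds are on this scale too, so they are ratios of signal + 16 and not of the signals printed. A gene passed the level filter when its higher array was at or above a signal of 41.6, the median level of all named genes. Of the 40 genes, 30 passed, Fzd8 being the dimmest of them at 41.6 and Wnt3 the brightest of the other 10 at 30.8. As a measure of how wide differences were at a given signal, the robust standard deviation (SD) of the difference was taken over all passing genes of similar level. It ran from 0.081 in bright genes to 0.29 in dim ones and describes genes, not animals.

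Differences of the Wnt genes were mostly below 1.5-fold, and the larger ones were of both signs. Of the 30 genes that passed the filter, 19 differed by less than 0.2 log2 units, a smaller share than the 81.3% of all passing genes. Within 1 local SD were 12 of the 30, beside 6104 of all 9297 passing genes, again a smaller share. Cthrc1 was 3.26-fold and Sfrp2 1.55-fold higher in KO, and these were the 2 of 30 passing genes at least 1.5-fold higher, where 0.850% of all 9297 passing genes were. None of the 30 was at least 1.5-fold lower, where 0.602% of all passing genes were. At 2-fold, the count was 1 gene higher, Cthrc1, beside a background of 0.237%, and 0 lower, beside 0.0968%. Cthrc1 passed the filter on its KO signal only, and the set was chosen with earlier results of these data known. The counts therefore do not measure an excess over the background. Measured in local SDs, 2 genes were at least 3 SDs higher (Cthrc1 and Sfrp2, background 1.82%) and 2 at least 3 SDs lower (Tcf7l2 and Dvl1, background 1.39%). The median over all 40 genes was -0.040, beside 0.0011 over all 18194 genes. Among the 30 passing genes, 12 were higher and 18 lower with a median of -0.058, beside -0.00055 over all passing genes. Of all passing genes, 50.2% were lower, and of all 18194 genes, 9155 were higher and 9039 lower.

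**Figure D1:**
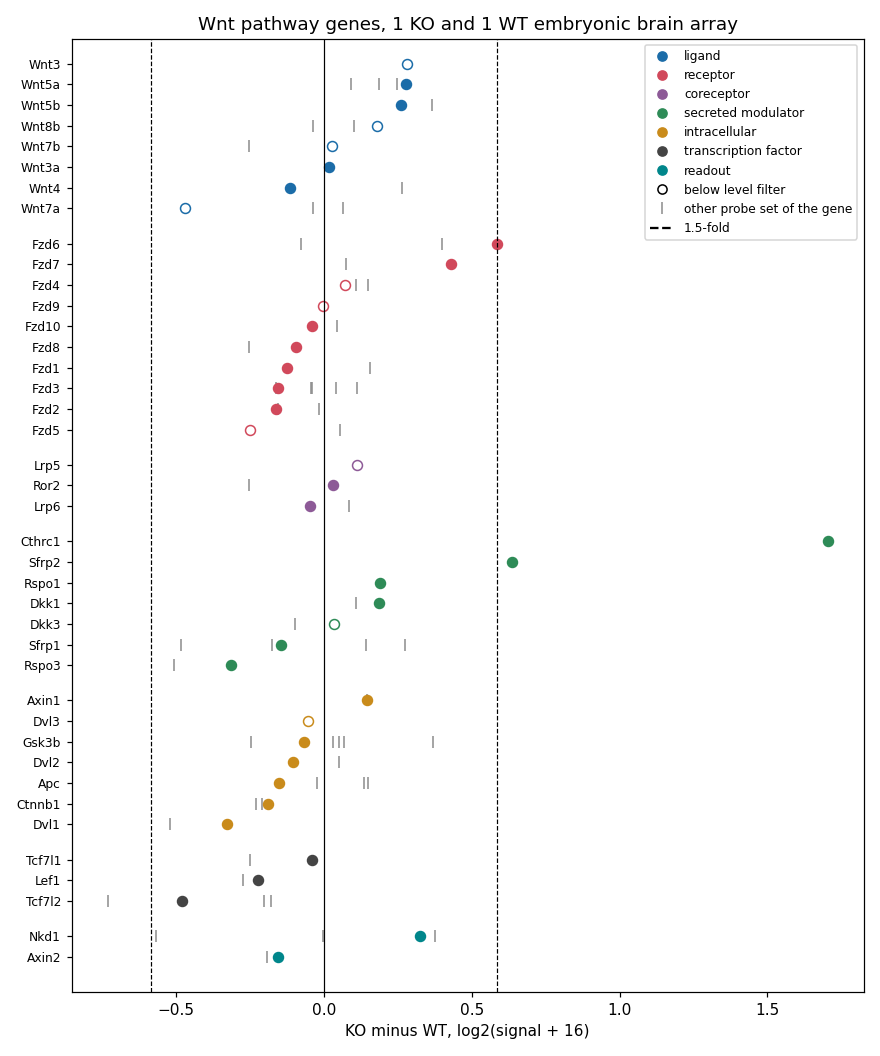
Difference KO minus WT of the 40 Wnt genes on the log2(signal + 16) scale, grouped by role, with 1 circle per gene (open where the gene is below the level filter), grey ticks for the other probe sets of the gene and dashed lines at 1.5-fold. Cthrc1 at 1.70 and Sfrp2 at 0.64 lie beyond the upper line, Fzd6 at 0.58 lies on it, and no circle lies beyond the lower one.

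**Figure D2:**
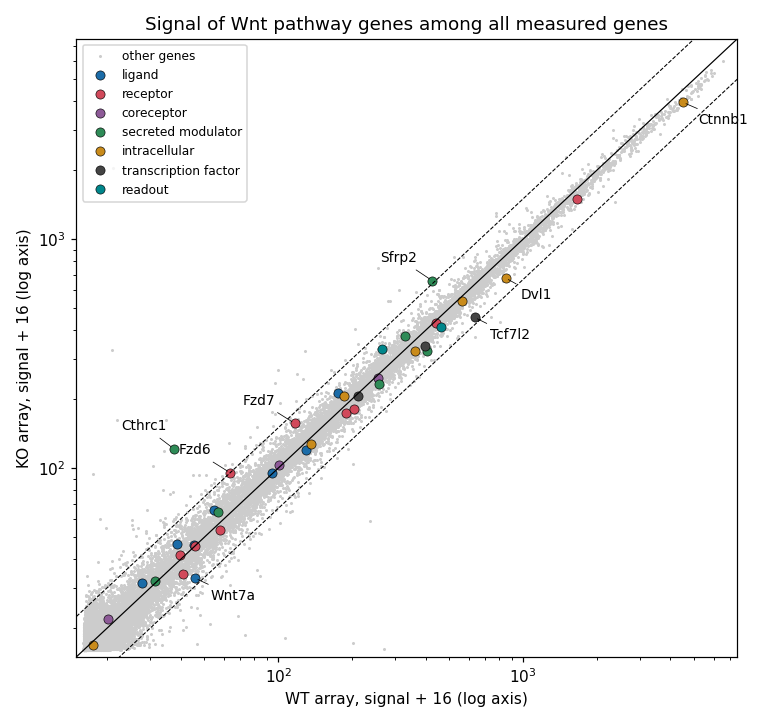
Signal + 16 in the WT array (x, log axis) against the KO array (y, log axis) for all 18194 genes (grey) and the Wnt genes coloured by role, with 1 point per gene, the line of equality and dashed lines at 1.5-fold. Most Wnt genes lie within the grey cloud, while Cthrc1 stands above it with signals of 106 (KO) and 21.4 (WT).

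Promoter sequences, where an entry was found, show which of the genes that differed most carry the letters to which Tcf and Lef proteins are known to bind. RefSeq promoter windows (build GRCm38.p6, 250 bases before to 50 after a transcript start) were found for 26 of the 40 genes, with 33 windows in all. The windows were searched on both strands for CTTTGAA and CTTTGAT as well as for CTTTGTA and CTTTGTT, which cannot match at the same place on 1 strand but can overlap across strands. Among the genes that passed the filter and differed by at least 0.4, or by at least 3 local SDs, Sfrp2, Fzd7, Dvl1 and Tcf7l2 had an entry, Tcf7l2 with 2 starts. Cthrc1, with the largest difference, and Fzd6 also met this rule but had no entry. The 250 bases before each start are shown, 5′ to 3′ along the plus strand, with matches in capitals, and they cover chr3:83766071-83766320 (Sfrp2), chr1:59481897-59482146 (Fzd7), chr4:155847152-155847401 (Dvl1), chr19:55741560-55741809 (Tcf7l2, outer start) and chr19:55895071-55895320 (Tcf7l2, inner start).
Sfrp2: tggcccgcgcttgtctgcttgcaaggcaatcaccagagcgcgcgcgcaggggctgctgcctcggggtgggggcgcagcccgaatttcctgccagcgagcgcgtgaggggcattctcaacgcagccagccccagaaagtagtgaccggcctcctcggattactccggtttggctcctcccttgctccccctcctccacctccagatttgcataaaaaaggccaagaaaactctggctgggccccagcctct
Fzd7: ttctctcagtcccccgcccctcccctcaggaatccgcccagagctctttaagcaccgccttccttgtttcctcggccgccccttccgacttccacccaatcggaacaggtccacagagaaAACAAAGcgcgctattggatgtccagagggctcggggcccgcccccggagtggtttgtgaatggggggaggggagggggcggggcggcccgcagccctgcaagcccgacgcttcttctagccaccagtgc
Dvl1: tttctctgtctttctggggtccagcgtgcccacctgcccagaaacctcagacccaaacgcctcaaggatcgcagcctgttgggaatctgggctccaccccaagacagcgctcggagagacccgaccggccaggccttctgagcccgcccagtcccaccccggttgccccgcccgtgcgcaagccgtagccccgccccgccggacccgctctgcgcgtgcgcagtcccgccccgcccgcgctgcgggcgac
Tcf7l2, outer start: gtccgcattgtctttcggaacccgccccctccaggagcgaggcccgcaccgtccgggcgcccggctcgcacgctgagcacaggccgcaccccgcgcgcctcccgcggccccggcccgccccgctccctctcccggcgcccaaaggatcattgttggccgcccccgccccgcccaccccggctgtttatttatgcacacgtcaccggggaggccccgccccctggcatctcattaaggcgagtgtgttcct
Tcf7l2, inner start: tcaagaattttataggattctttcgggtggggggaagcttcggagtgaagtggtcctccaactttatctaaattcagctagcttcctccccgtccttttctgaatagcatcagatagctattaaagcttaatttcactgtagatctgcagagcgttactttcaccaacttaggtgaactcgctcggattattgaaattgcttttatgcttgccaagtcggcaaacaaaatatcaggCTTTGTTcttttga

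Fzd7 held 1 match, AACAAAG, starting 130 bases before the start, which reads CTTTGTT on the other strand. The inner start of Tcf7l2 held CTTTGTT 14 bases before it, and the outer start held none. The GC content of the 250 bases shown was 40.8% at the inner and 72.8% at the outer start. The windows of Sfrp2 and Dvl1 held none. Over all windows, 6 of the 26 genes (23.1%) held a match, Dkk1, Fzd7, Lef1, Tcf7l2, Wnt3 and Wnt5b, against 15.4% of the 14453 measured genes with an entry. Of the 6, 4 were higher and 2 lower in KO, with differences from -0.48 to 0.43. Of the 20 genes without a match, 7 were higher and 13 lower, from -0.47 to 0.64. A match describes the letters only.

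Ligand genes were mostly level or slightly higher in KO. Of 8, 6 were higher, beside 9155 of all 18194 genes. The filter was passed by 4, of which 3 were higher and none was 1.5-fold apart. Of these 3, Wnt5b passed on its KO signal only and Wnt3a was level, which leaves Wnt5a. Wnt5a, a ligand of the noncanonical branches, read 197 in KO and 159 in WT (0.28, or 2.40 local SDs). Its other 3 probe sets also read higher in KO, 57.6 against 48.6 (0.19) on the next brightest. Wnt5b, its close relative, read 49.7 against 38.8 (0.26), which is 0.91 local SDs at this low signal, and its second probe set read 30.7 against 20.2. Both Wnt5 genes were thus higher in KO on every probe set, by less than 1.5-fold. Wnt3a, a canonical ligand of the dorsal midline, read 79.7 against 78.4 and was level (0.018, turning to -0.00061 after quantile normalisation and -0.0043 after the loess). Wnt4 read 104 against 114 (-0.12), but 59.0 against 46.4 (0.26) on its other passing probe set, so its direction depends on the probe set.

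The remaining ligand genes were below the level filter in both arrays. Wnt7a, a ligand made by neural progenitors, read 17.1 against 29.8 (-0.47), the lowest value among the ligands. Its other probe sets, near background, differed by -0.037 and 0.064. Wnt3 read 30.8 against 22.6 (0.28) on a probe set of the x type, which can share probes with other genes, as can that of Wnt5b. Wnt7b (0.026) and Wnt8b (0.18) read 30.3 against 29.4 and 15.5 against 11.8.

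The 10 Frizzled receptor genes ranged from -0.25 to 0.58. Fzd6 and Fzd7 were higher in KO, while the other 5 passing members were between 0.040 and 0.16 log2 units lower. Fzd6, a receptor known for planar cell polarity, read 79.5 against 47.6 (0.58, just under the 1.5-fold threshold), at 2.98 local SDs. Its other 2 probe sets, at signals of at most 10.3, differed by 0.40 and -0.078. Fzd7 read 141 against 101 (0.43, or 2.92 local SDs), and its dim second probe set was level at 4.06 against 3.03 (0.076). Both genes were thus higher on their brightest probe set, but short of 1.5-fold and just short of 3 local SDs. With the mean of all probe sets, Fzd6 was at 0.30 and Fzd7 at 0.25.

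Fzd3, a receptor needed for axon tract formation, read 1477 against 1645 (-0.16). Of its passing probe sets, 3 were lower and 1 was higher, with a range from -0.16 to 0.041. Fzd2 read 166 against 187 (-0.16), and its 3 probe sets were all lower in KO. Fzd1 (158 against 173, -0.13), Fzd10 (414 against 426, -0.040) and Fzd8 (37.9 against 41.6, -0.097) differed by less than 1 local SD. Fzd4 (25.9 against 23.9), Fzd5 (18.4 against 24.9) and Fzd9 (29.9 in both) were below the filter, with differences of 0.071, -0.25 and -0.0020. Fzd6 and Fzd7 thus stood apart from the other 8 Frizzled genes, which ranged from -0.25 to 0.071.

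The co-receptor genes were level. Lrp6, the main canonical co-receptor of the embryo, read 233 against 241 (-0.048), and Ror2, a receptor of Wnt5a, read 86.8 against 84.7 (0.030). Lrp5 was near background at 5.85 against 4.20.

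Secreted modulators held both genes that passed 1.5-fold, and 5 of 7 were higher in KO, beside 9155 of all 18194 genes. Cthrc1, a secreted glycoprotein that binds Wnt and Frizzled proteins and favours planar cell polarity signalling, read 106 in KO and 21.4 in WT (1.70, or 8.31 local SDs). Its WT signal was below the level filter, so the size of the difference depends on the pseudocount, 2.25 with a pseudocount of 1 and 0.99 with 64. Sfrp2, a soluble Frizzled-related protein that binds Wnt ligands, read 644 against 409 (0.64, or 6.38 local SDs). It was 1.5-fold higher at every setting but the pseudocount of 64, where it was 0.58. Each of these genes has 1 probe set, so neither difference could be checked against another.

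Sfrp1, the close relative of Sfrp2, read 217 against 242 (-0.15) on its brightest probe set. Its 4 passing probe sets ranged from -0.18 to 0.28, so no direction could be read for it. Members of the R-spondin family, which raise Wnt signalling by keeping Frizzled receptors on the cell surface, went apart from each other. Rspo1 read 360 against 313 (0.19), and Rspo3 read 310 against 389 (-0.31, or -2.81 local SDs), with the dim second probe set of Rspo3 at 6.67 against 16.2 (-0.51). Rspo2, from the further pathway genes, read 140 against 170 (-0.26). Dkk1, a secreted inhibitor that binds the Lrp co-receptors, read 48.7 against 40.8 (0.19, or 0.65 local SDs), and Dkk3 was below the filter at 16.1 against 15.3.

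Intracellular components were mostly lower in KO by small amounts, 6 of 7, with a median of -0.10. Of the 6 that passed the filter, 5 were lower, beside 50.2% of all passing genes. Those lower include Apc and Gsk3b, whose direction depends on the probe set. Dvl1, which carries the signal from Frizzled into the cell, read 661 against 834 (-0.33, or -3.93 local SDs). Its second probe set read 134 against 199 and differed by -0.52, in the same direction. The related Dvl2 read 111 against 121 (-0.10), and Dvl3 was at background, with 0.90 against 1.53. Dvl1 was thus the Dishevelled gene that stood apart here.

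Ctnnb1, the gene of β-catenin, read 3940 against 4494 (-0.19), and its 3 probe sets were all lower, between -0.23 and -0.19. It is among the brightest genes on the arrays, and its difference was -0.050 after quantile normalisation and -0.097 after the loess, which both take out a trend of the difference with signal. The components of the destruction complex were close to level. Apc read 310 against 346 (-0.15), but 0.027 with the mean of its probe sets. Axin1 read 190 against 170 (0.14, and 0.14 on its second probe set as well) and Gsk3b 519 against 545 (-0.069). The 5 passing probe sets of Gsk3b ranged from -0.069 to 0.37, so no direction could be read for it.

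All 3 measured transcription factor genes were lower in KO, beside 50.2% of all passing genes. Tcf7l2, which binds DNA together with β-catenin and is known for its expression in the caudal forebrain, read 439 in KO and 618 in WT (-0.48, or -4.81 local SDs). Its other 3 probe sets were lower too, with 150 against 171 (-0.18), 19.3 against 42.5 (-0.73) and 6.32 against 9.67 (-0.20). Lef1, a factor that is itself a Wnt target, read 326 against 383 (-0.22, or -2.00 local SDs) and was also lower on its dim probe set (-0.27). Tcf7l1, known mostly as a repressor in the absence of Wnt, read 191 against 197 (-0.040) on the brighter and 127 against 155 (-0.25) on the dimmer probe set. Every probe set of Tcf7l2, Lef1 and Tcf7l1 thus read lower in KO, and none of the genes reached 1.5-fold.

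The readouts, genes switched on by the canonical pathway that restrain it, differed in opposite directions. Axin2 read 398 against 446 (-0.16), with -0.19 on its dim probe set. Nkd1, which binds Dishevelled, read 315 against 248 (0.32, or 2.61 local SDs) and 133 against 98.5 (0.37) on its second passing probe set. Its 2 dim probe sets read 19.3 against 19.4 and 2.22 against 11.0, and with the median probe set its value was -0.0047. Notum, an enzyme from the further pathway genes that inactivates Wnt proteins by removing their lipid, was below the filter but read 38.8 against 10.7 (1.04), and it was singled out after its value was seen. Sp5, another direct target, read 112 against 137 (-0.26). Of the other passing genes on its list of targets, Ccnd1 was lower (-0.15) and Myc higher, at 80.5 against 60.1 (0.34).

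The further Wnt pathway genes cover other ligands, secretion, polarity, receptor turnover, nuclear factors and targets. Of 67 listed, 64 were measured and 38 passed the filter, 17 of them higher and 21 lower with a median of -0.038. None of these 38 was 1.5-fold apart, and Notum, below the filter, was the only one of the 64 that was. The largest values among the passing genes were those of Ror1, a receptor related to Ror2, at 119 against 82.3 (0.46), and Gsk3a, the paralogue of Gsk3b, at 286 against 205 (0.45). The lowest were Celsr2 at 270 against 361 (-0.40) and Celsr1 at 166 against 218 (-0.36), both atypical cadherins of planar cell polarity. By local SDs, 1 of the 38 was at least 3 SDs higher (Gsk3a) and 2 were at least 3 SDs lower (Celsr1 and Celsr2), beside the backgrounds of 1.82% and 1.39%. Only 1 of the 10 further ligands, Wnt9a, passed the filter, at 146 against 142.

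Markers of brain regions and of other cell types differed between the same arrays, and their part in the values above was not tested. All 10 measured midbrain and isthmus markers were higher in KO, beside 9155 of all 18194 genes. Their summed signal was 2440 against 1216 and their median 1.02. To the sums, En2 gave 1291 and 761 and Cnpy1 584 and 297. Pax5 and Gbx2 were below the filter, and En1, Pax8, Fgf8, Fgf17 and Sp8 passed it on their KO signal only. All 4 genes of the forebrain list that passed the filter were lower, from Lhx2 at -0.67 and Barhl2 at -0.63 to Otx2 at -0.27 and Otx1 at -0.19. The other 3 measured genes of this list, all below the filter, were slightly higher, Emx1 by 0.051, Emx2 by 0.054 and Six3 by 0.061. The list had a summed signal over 7 measured genes of 2082 against 2558, of which Otx2 alone gave 1820 and 2203. Tcf7l2 was lower as well, and so was Wnt7a, but below the filter and with its other probe sets at -0.037 and 0.064. The other ligands below the filter, Wnt3 (0.28), Wnt7b (0.026) and Wnt8b (0.18), were not lower on their brightest probe sets. In bulk tissue, fewer cells of a type and less RNA per cell cannot be told apart.

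Head mesenchyme markers stand beside Cthrc1, which is also known in mesenchymal cells. Of 13 markers, 9 were higher and 4 lower, with a median of 0.18, and none was 1.5-fold apart. Over the 10 that passed the filter, 7 were higher and the median was 0.20. Summed signals were 3080 in KO and 3008 in WT, of which Col3a1, which was lower, gave 1398 and 1554. The values of the 13 markers ranged from -0.39 for Tbx18 to 0.27 for Twist1. Neural crest markers summed to 688 against 646 and dorsal midline markers to 791 against 650, with Sox10 and Foxd3, defining genes of the crest, near background at no more than 5.47. All 8 macrophage markers were lower, with sums of 149 and 455, while endothelial markers summed to 442 and 482. Of the 8 macrophage markers, 5 were below the filter, and C1qb and Mrc1 passed it on their WT signal only. Of 7 neural progenitor markers, 6 were lower (median -0.20), and of 6 neuron markers 4 were (median -0.14), values which stand beside the small negative values of the intracellular components.

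**Figure D3:**
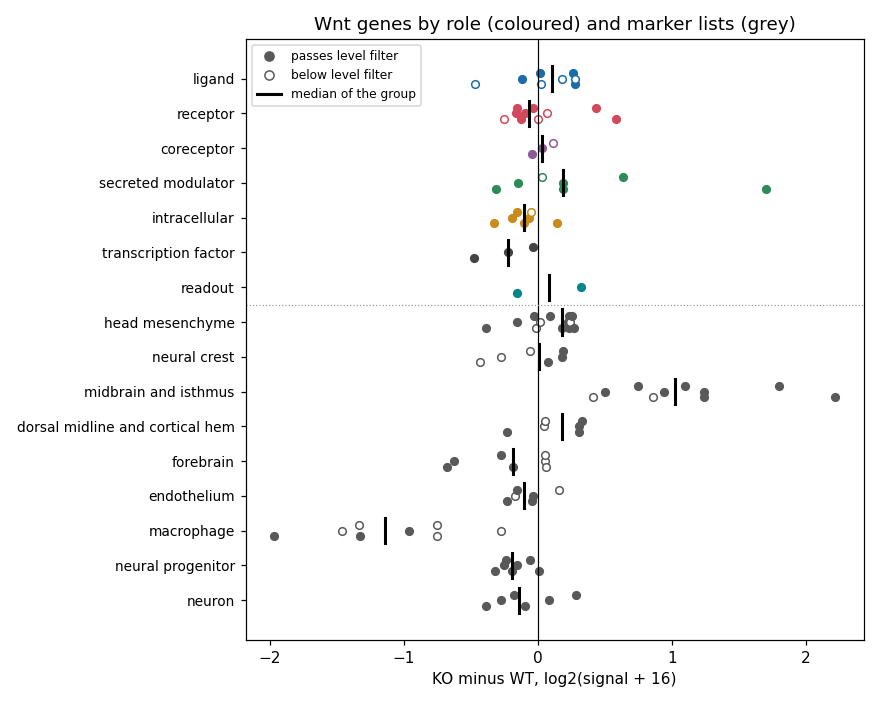
Difference KO minus WT on the log2(signal + 16) scale for Wnt genes by role (coloured) and for marker lists (grey), with 1 circle per gene, open below the level filter, and black bars at group medians. The Wnt roles have medians between -0.22 and 0.19, while midbrain and isthmus markers have one of 1.02 and macrophage markers one of -1.14.

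The arrays also differ in sex-linked transcripts, with Xist at 2023 in KO and 5.19 in WT and the Y-linked Eif2s3y, Kdm5d and Uty at no more than 2.21 in KO and at least 90.9 in WT. Genotype and embryo sex therefore cannot be told apart for any gene above.

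Of the 30 passing genes, 21 kept it under all 6 alternatives of scaling, pseudocount and probe set, 9 of them higher and 12 lower in KO. The mean of all probe sets changed the sign of 7 genes, the median probe set of 3, and quantile normalisation and the loess of 1 each. Cthrc1, Sfrp2, Fzd6, Fzd7 and Wnt5a stayed higher, and Lef1, Rspo3, Dvl1 and Tcf7l2 stayed lower, at all of them, while Nkd1 turned from 0.32 to -0.0047 with its median probe set. Fzd7 came down to 0.076 with its median probe set.

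**Figure D4:**
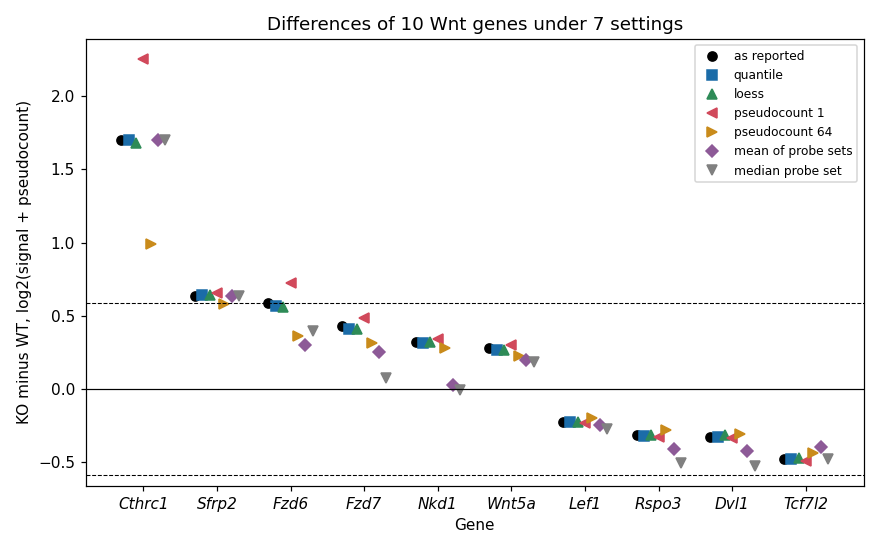
Difference KO minus WT (y, log2 of signal plus the pseudocount) of 10 Wnt genes (x), with 1 marker for the value as reported and 1 for each of 6 other settings, and dashed lines at 1.5-fold. Cthrc1 moves between 0.99 and 2.25 with the pseudocount, Nkd1 comes to -0.0047 with its median probe set, and Tcf7l2 stays between -0.49 and -0.40.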

How the data were processed

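Total RNA of 1 KO and 1 WT sample was hybridised to 1 Affymetrix 3′ expression array each. The authors deposited linear intensity values of 45101 probe sets per array. Per the submitters' processing notes they come from Affymetrix Expression Console, and the summary algorithm, its version and the genome build are, for these values, not given in the sources used here. Medians were 13.2 in both arrays, and the mean without the lowest and highest 2% was 100.0 in each, so the arrays share a global scale. The number of arrays limits the precision.

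Probe sets were named through the platform annotation, in which 34958 carried 1 symbol, 932 several and 9211 none here. Only those with 1 symbol named a gene. Arrays were scaled to equal medians and taken as log2(intensity + 16). Local SDs are normal-scaled median absolute deviations in 20 equal bins of level over passing genes, without centring the gene's own difference. Every measured Wnt gene was described. Further pathway genes were named where at least 1.5-fold apart, or among the 2 largest passing differences per direction, and marker genes as defining or extreme. Other marker genes were named to show the limits of their list. Rspo2, Wnt9a, Sp5, Ccnd1, Myc and Notum were chosen after their values were seen. The members, lists and rules were chosen with earlier results of these data known. The fold and local SD rules were run on real differences permuted among genes of similar level, with known shifts added to some genes. Scaling, pseudocount, level filter and probe set choice were not part of this check. Alternatives were quantile and loess (span 0.3) scaling, pseudocounts of 1 and 64, the level filter, the probe set rule and the fold. Python 3.11.15 was used with pandas 2.3.3, numpy 2.4.6, statsmodels 0.14.6 (loess) and matplotlib 3.10.9 (figures).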

Additional observations from a re-analysis of the deposited data

How the results depend on the processing

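No paired analysis was possible because a genotype has a single array, so leaving out replicates was not possible either. The count of Wnt genes at least 1.5-fold higher, 2 as reported, was 1 at a pseudocount of 64 (Cthrc1), 1 with a 75th-percentile level filter (Sfrp2) and 1 at 2-fold, and it was 3 at a pseudocount of 1, with Fzd6. The count at least 1.5-fold lower was 0 at all fold settings run, and by the 3-SD rule it was 2. The median of -0.040 over the 40 genes moved to 0.0084 when all probe sets of a gene were averaged, -0.15 among genes passing the 75th-percentile filter, and 0.044 when the mean of the genes replaced their median. Restricting it to the 30 passing genes, chosen after seeing the data, gave -0.058. The 10 genes below the filter have differences that follow the pseudocount, as for Wnt7a, which read -0.77 with a pseudocount of 1 and -0.21 with 64. No alternative could stand in for replicate arrays.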
